A study of Homo sapiens with 6 samples.

Results

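Purine, pyrimidine and deoxynucleotide synthesis was followed through 33 genes of de novo and salvage nucleotide enzymes, given as a list of symbols and found by symbol among the 54261 genes of the count table. All 33 had a row and all 33 passed the filter on low counts. RNA was sequenced from T24, an established human bladder cancer cell line. The 3 knockdown libraries came from cells infected with a lentivirus that carried hairpin number 2 against MTHFD2, ZsGreen and puromycin resistance. The 3 control libraries came from cells infected with the negative control (NC) lentivirus, which carried ZsGreen and puromycin resistance with no hairpin named, and stable lines of both were selected with puromycin. The series text speaks of a knockout, whereas the treatment label names a hairpin, so the group is called a knockdown here. A single hairpin in a single cell line was measured, and the origin of replicates 1 to 3 in separate cultures or in 1 culture is not labelled. The p-values therefore measure the spread between these libraries, which may be technical.

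Cells build purines on a ribose phosphate in a chain of steps that ends at IMP, from which ATP and GTP are made, and build pyrimidines by closing the ring first and adding ribose phosphate afterwards. Folate carries the carbon that the purine enzymes GART and ATIC insert and that thymidylate synthase, TYMS, adds to dUMP to make the DNA nucleotide dTMP. MTHFD2 is a mitochondrial folate enzyme that helps supply that carbon, and cancer cells use it heavily. Salvage enzymes such as HPRT1 and TK1 recycle bases and nucleosides instead, and ribonucleotide reductase turns ribonucleotides into the deoxy form for DNA.

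Library totals ran from 17801990 to 19978392 counts, and each member held between 420 and 9950 counts in every library, so counting error was at most 4.88% of a value. The target fell: MTHFD2 was at 26.7, 33.6 and 36.7 CPM (counts over library size, with sizes scaled by the TMM method) in knockdown libraries and at 185, 188 and 181 CPM in control libraries, a log2 fold change of -2.51 ± 0.13 (SE; edgeR adjusted p = 1.80e-06). The keratins KRT8 and KRT18, markers of epithelial cells, were at a mean of 343 and 642 CPM in knockdown libraries and 825 and 1192 CPM in control libraries, while the urothelial markers UPK3A and TP63 were at or near 0 in both groups. A further urothelial marker, UPK1A, was low but higher in knockdown libraries, at 0.994, 1.16 and 1.98 CPM, than in control libraries, at 0.342, 0.416 and 0.478 CPM (log2 fold change 1.72 ± 0.40, SE; edgeR adjusted p = 0.0141), and passed in 5 of the 6 fits that left out a library. The summed level of 11 fibroblast markers was 46.7, 12.3 and 40.7 CPM in knockdown replicates 1 to 3 and 7.35 to 9.36 CPM in control libraries. Of the 6 fibroblast markers that could be tested 5 were higher, among them COL1A1 at a mean of 12.3 CPM in knockdown libraries and 3.46 CPM in control libraries, and none of the 11 was at 0 in a knockdown library. The 6 leukocyte markers summed to 1.59 to 3.23 CPM in knockdown libraries and 2.34 to 2.51 CPM in control libraries, and the 5 endothelial markers to at most 1.71 CPM in knockdown libraries and 3.02 CPM in control libraries. Whether fibroblasts or the T24 cells themselves made this RNA was not tested, nor was its part in the results. Counts are also given below for knockdown replicate 2, whose fibroblast marker sum was nearest the controls. In bulk RNA, fewer cells of a type and less RNA per cell cannot be told apart.

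Of the 33 nucleotide enzymes 4 passed the test, and with all 6 libraries no member's estimated change reached 2-fold. PRPS2, which makes the activated ribose phosphate that starts nucleotide synthesis, rose, and CTPS1, DCTD and TK1, which act on pyrimidine nucleotides or deoxythymidine, fell. That is 1 member higher and 3 lower of 33, or 12.1%, by edgeR's quasi-likelihood test at a Benjamini-Hochberg adjusted p under 0.05 over all 13896 tested genes, of which 17.3% were called, 9.71% higher and 7.58% lower. The difference between these shares was not tested, and the members' share is read as near the background. The median log2 fold change of knockdown over control was -0.11 over the members and 0.01 over all tested genes, and 24 of the 33 members lay below 0, against 49.2% of all tested genes. The 95% interval of the change stayed inside 2-fold for 32 members and inside 1.5-fold for 26.

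**Figure D1:**
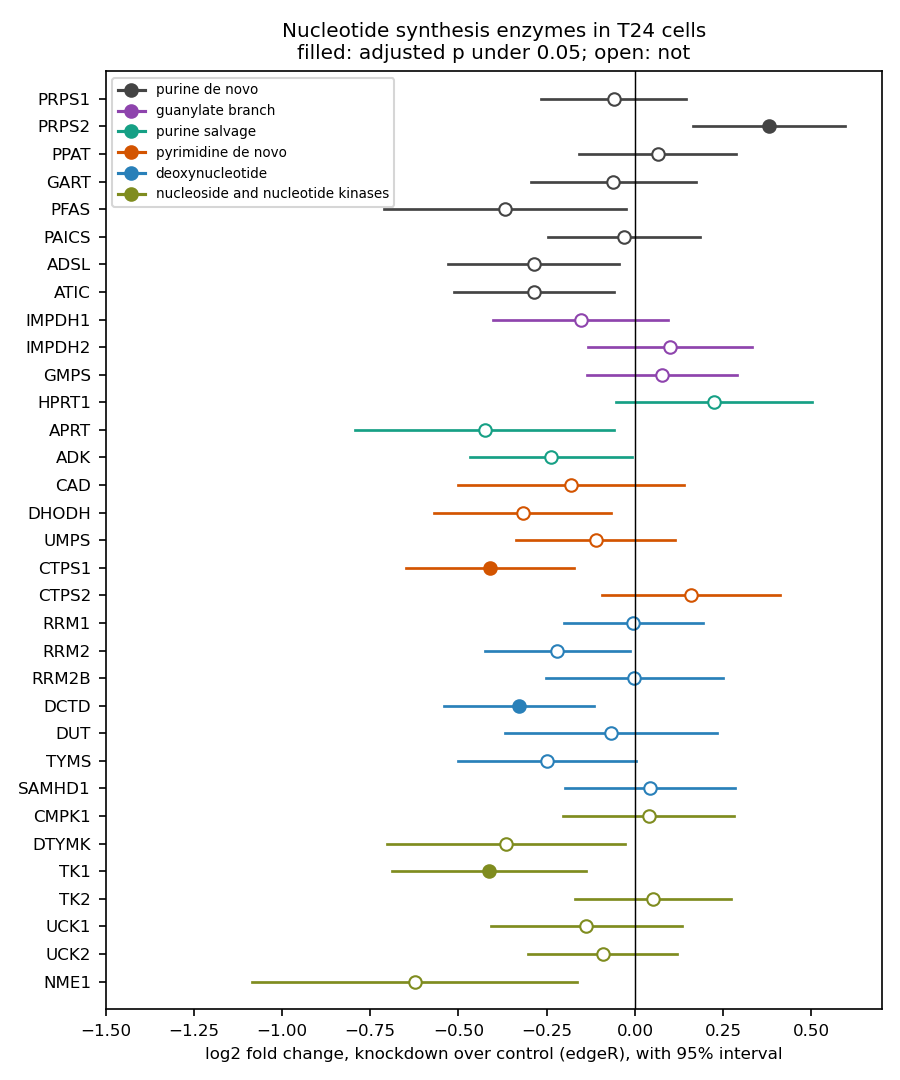
Log2 fold change of each of the 33 members, knockdown over control, with its 95% interval from the edgeR fit, grouped and coloured by role. Filled points passed the test: PRPS2 lies at 0.38, and CTPS1, DCTD and TK1 at -0.41, -0.33 and -0.41, while NME1 has the widest interval, from -1.08 to -0.16.

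The promoters of the 4 genes that passed are shown because these are the members whose RNA level changed. Each window runs from 250 bases before to 50 after a RefSeq start on GRCh38.p14, 5′ to 3′ on the gene's strand: chrX:12791162-12791461 (plus) for PRPS2, chr1:40979446-40979745 (plus) for CTPS1, chr4:182917562-182917861 (minus) for DCTD and chr17:78187155-78187454 (minus) for TK1. Where RefSeq gave several windows, the one nearest the GENCODE start is printed. Capitals mark matches on either strand to the E box CACGTG, the E2F-type words TTTCCCGC, TTTGGCGC or TTTCGCGC, the CCAAT box or the ATF4-type word TGATGNAA.
PRPS2: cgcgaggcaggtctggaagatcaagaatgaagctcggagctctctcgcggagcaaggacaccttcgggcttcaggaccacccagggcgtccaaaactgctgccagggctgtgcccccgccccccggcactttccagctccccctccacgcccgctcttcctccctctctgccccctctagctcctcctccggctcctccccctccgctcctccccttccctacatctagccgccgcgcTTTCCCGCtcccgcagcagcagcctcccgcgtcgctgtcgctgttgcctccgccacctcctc
CTPS1: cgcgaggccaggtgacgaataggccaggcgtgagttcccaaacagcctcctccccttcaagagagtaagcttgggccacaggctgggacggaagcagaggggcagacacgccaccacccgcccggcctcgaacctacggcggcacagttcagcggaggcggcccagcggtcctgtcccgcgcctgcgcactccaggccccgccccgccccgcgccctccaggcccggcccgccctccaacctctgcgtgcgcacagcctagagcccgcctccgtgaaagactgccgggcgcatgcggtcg
DCTD: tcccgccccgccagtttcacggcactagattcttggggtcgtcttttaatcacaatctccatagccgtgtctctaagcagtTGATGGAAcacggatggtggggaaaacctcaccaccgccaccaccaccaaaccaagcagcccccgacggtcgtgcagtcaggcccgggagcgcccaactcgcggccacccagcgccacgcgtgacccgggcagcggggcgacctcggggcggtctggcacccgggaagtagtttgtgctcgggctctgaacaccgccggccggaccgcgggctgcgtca
TK1: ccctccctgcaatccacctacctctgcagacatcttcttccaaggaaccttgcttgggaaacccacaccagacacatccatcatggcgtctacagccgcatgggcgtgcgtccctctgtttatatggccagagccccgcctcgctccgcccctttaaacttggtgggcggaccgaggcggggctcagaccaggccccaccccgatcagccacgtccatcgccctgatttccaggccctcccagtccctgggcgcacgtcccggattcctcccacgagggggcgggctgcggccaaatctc

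PRPS2 held an E2F-type word 12 to 5 bases before its start, and DCTD held an ATF4-type word. The printed windows of CTPS1 and TK1 held none of these words, while the other TK1 window held 2 CCAAT boxes. RefSeq windows were found for 30 of the 33 members, 43 windows in all. At least 1 of the 3 E2F-type words was in 9.3% of these 43 windows (DUT, GART, PRPS2 and TYMS), against 2.7% of 34796 windows of all genes. An E box was in 11.6% (ATIC, DHODH, NME1, PAICS and PPAT), against 7.2%, and a CCAAT box in 37.2%, against 34.6%. PPAT and PAICS start 126 bases apart on opposite strands, so their windows may overlap and the same E box may count for both. The ATF4-type word was in 2.3%, against 3.6%. These matches describe letters only and say nothing of binding.

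In purine synthesis, PRPS2 (ENSG00000101911.12, GRCh38 chromosome X, 12791355 to 12824222, plus strand) was at 129, 136 and 150 CPM in knockdown libraries and at 108, 108 and 104 CPM in control libraries. All knockdown libraries lay above all control libraries. The mean was 30.1% above that of control libraries, at a log2 fold change of 0.38 ± 0.10 (SE; edgeR adjusted p = 0.023). Leaving out control replicate 1, 2 or 3 ended the call (edgeR adjusted p = 0.0979, 0.0773 and 0.0918), with the log2 fold change between 0.31 and 0.43 over all fits that left out a library. PRPS1, its close paralog on the same chromosome, was at 116, 111 and 123 CPM in knockdown libraries and 120, 123 and 121 CPM in control libraries, and these overlapped. Its log2 fold change was -0.06, with a 95% interval from -0.27 to 0.15.

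None of the 6 enzymes that carry the ribose phosphate on to IMP passed the test. PPAT, which commits it to purines, and PAICS, which acts later, start 126 bases apart on opposite strands of chromosome 4. PPAT was at 67.5 ± 1.95 CPM in knockdown libraries and 64.5 ± 4.83 CPM in control libraries (SD, n = 3 each), and PAICS at 499 ± 29.8 CPM in knockdown libraries and 509 ± 11.1 CPM in control libraries. Both of this divergent pair had intervals that included 0, from -0.16 to 0.29 for PPAT and from -0.25 to 0.19 for PAICS. GART, which adds the earlier of the folate-borne carbons, was at 188, 209 and 166 CPM in knockdown libraries and 202, 201 and 185 CPM in control libraries, and the groups overlapped (log2 fold change -0.06 ± 0.11, SE). ATIC, which adds the later one, was at 267, 236 and 284 CPM in knockdown libraries and 306, 320 and 334 CPM in control libraries. Its groups did not overlap, but its log2 fold change of -0.29 ± 0.10 missed the threshold (edgeR adjusted p = 0.0787). ADSL, which splits off fumarate in the same chain, also lay wholly below the controls at -0.29 ± 0.11 (edgeR adjusted p = 0.0958). Of its exonic length, 18.9% is shared with another annotated transcript on the same strand. PFAS, which converts FGAR to FGAM, was at 131, 108 and 77.8 CPM in knockdown libraries and 143, 140 and 125 CPM in control libraries, with an interval from -0.71 to -0.03. The PFAS groups overlapped, and the test was not passed (edgeR adjusted p = 0.124).

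Guanylate synthesis and purine salvage gave no call. IMPDH2, the more abundant of the IMP dehydrogenases that start GMP synthesis, was at 342, 315 and 370 CPM in knockdown libraries and 307, 302 and 350 CPM in control libraries. IMPDH1 was at 64.0, 57.8 and 57.8 CPM in knockdown libraries and 61.8, 62.2 and 75.8 CPM in control libraries, and the groups of both overlapped. GMPS, which completes GMP, was at 173 ± 13.7 CPM in knockdown libraries and 165 ± 1.76 CPM in control libraries (SD, n = 3 each). HPRT1, which salvages hypoxanthine and guanine, was at 109, 113 and 151 CPM in knockdown libraries and 103, 105 and 111 CPM in control libraries. Knockdown replicate 3 alone stood apart there, and without it the log2 fold change was 0.06 in place of 0.22. APRT, which salvages adenine, was at 99.1, 71.6 and 109 CPM in knockdown libraries and 114, 106 and 155 CPM in control libraries, so that the groups overlapped (edgeR adjusted p = 0.101). ADK, the adenosine kinase, lay wholly below the controls, at 68.4, 62.7 and 76.9 CPM in knockdown libraries and 81.7, 80.8 and 82.6 CPM in control libraries, with a log2 fold change of -0.24 ± 0.11 that did not pass (edgeR adjusted p = 0.139).

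**Figure D2:**
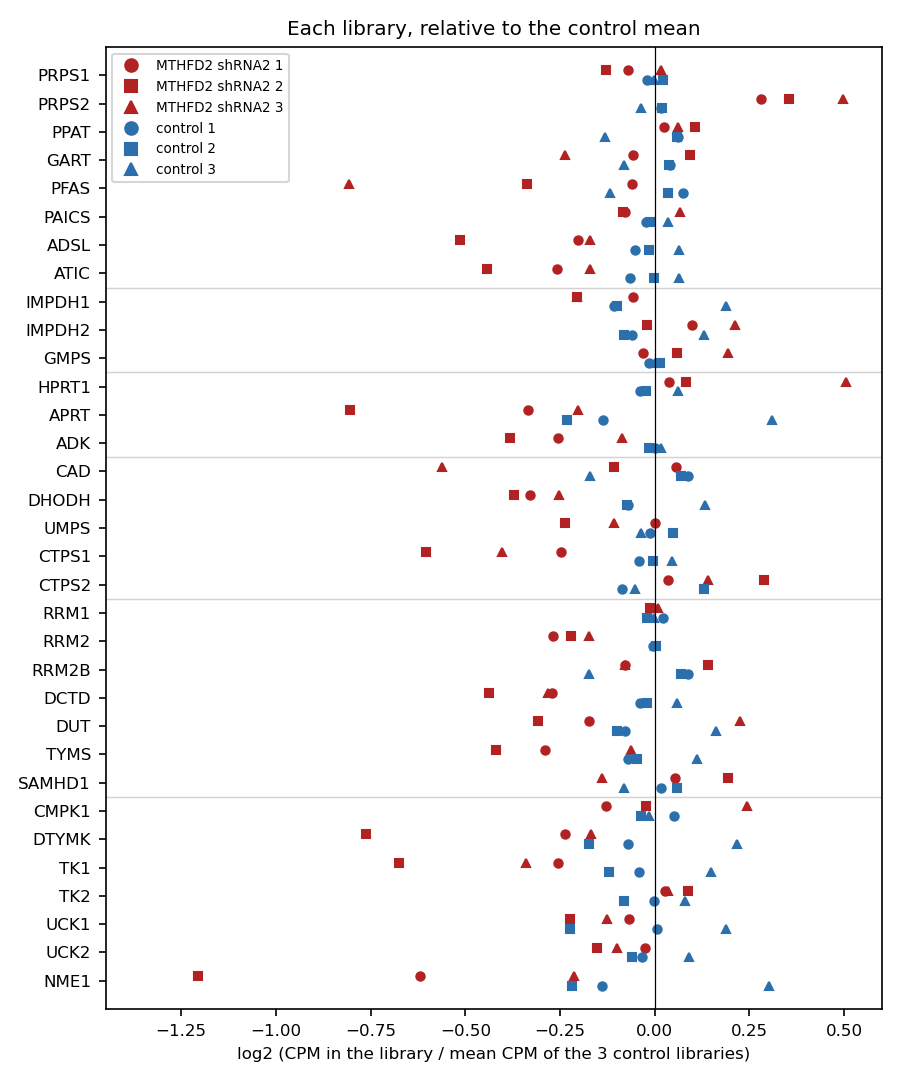
Log2 of each library's CPM over the mean of the 3 control libraries, for each member, with knockdown libraries in red and control libraries in blue and a marker shape per replicate. PRPS2 is the member whose knockdown libraries all lie above the controls, 8 members lie wholly below them, and the red squares of knockdown replicate 2 are the lowest point for 18 of the 33 members.

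In pyrimidine synthesis, the RNA of a gene for the last step passed the test. CTPS1 (ENSG00000171793.14, chromosome 1, 40979335 to 41012565, plus strand), which aminates UTP to CTP, was at 288, 225 and 259 CPM in knockdown libraries and at 333, 341 and 353 CPM in control libraries. The groups did not overlap, and the mean of knockdown libraries was 0.752 times that of control libraries (log2 fold change -0.41 ± 0.11, SE; edgeR adjusted p = 0.0255). Leaving out knockdown replicate 2 ended the call (edgeR adjusted p = 0.0734) and so did leaving out control replicate 1, 2 or 3 (0.0767, 0.0647 and 0.0865), with the log2 fold change between -0.50 and -0.33 over all fits that left out a library. Its paralog CTPS2 was at 34.9, 41.5 and 37.5 CPM in knockdown libraries and at 32.0, 37.2 and 32.8 CPM in control libraries, and did not pass (0.16 ± 0.12). Upstream of them, CAD, which carries the opening activities of the pathway on a single protein, was at 122, 109 and 79.2 CPM in knockdown libraries and 124, 123 and 104 CPM in control libraries, which overlapped. DHODH, the mitochondrial enzyme of the pathway, was lower in every knockdown library, at 21.8, 21.2 and 23.0 CPM against 26.1, 26.0 and 30.1 CPM in control libraries, but its log2 fold change of -0.32 ± 0.12 missed the threshold (edgeR adjusted p = 0.0774). UMPS, which makes UMP, was at 59.2 ± 4.87 CPM in knockdown libraries and 63.9 ± 1.94 CPM in control libraries (SD, n = 3 each).

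Among the deoxynucleotide enzymes, DCTD (ENSG00000129187.14, chromosome 4, 182890060 to 182917936, minus strand), which deaminates dCMP to the dUMP that TYMS uses, was at 118, 105 and 117 CPM in knockdown libraries and at 139, 141 and 149 CPM in control libraries. All knockdown libraries lay below all controls (log2 fold change -0.33 ± 0.10, SE; edgeR adjusted p = 0.0379). Leaving out knockdown replicate 2 ended the call (edgeR adjusted p = 0.117) and so did leaving out control replicate 1, 2 or 3 (0.111, 0.0969 and 0.137), with the log2 fold change between -0.36 and -0.28 over all fits that left out a library. TYMS itself was at 349, 320 and 409 CPM in knockdown libraries and 407, 413 and 461 CPM in control libraries. Knockdown replicate 3 overlapped the controls, and the log2 fold change of -0.25 ± 0.12 did not pass (edgeR adjusted p = 0.152). Of the exonic length of TYMS, 39.2% overlaps ENOSF1 on the opposite strand, and without a stated strand setting reads of the pair cannot be told apart. The same limit holds for other members that overlap a gene on the opposite strand. Among them are TK2 (14.7% with AC010542.4), DUT (14.5% with AC023355.1) and SAMHD1 (10.3% with TLDC2).

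Ribonucleotide reductase consists of a large subunit, RRM1, and a small subunit, RRM2 or, outside S phase, RRM2B. RRM1 was level between the groups, at 238, 238 and 242 CPM in knockdown libraries and 244, 237 and 240 CPM in control libraries, with an interval from -0.20 to 0.19. RRM2 was at 367, 378 and 392 CPM in knockdown libraries and at 440, 443 and 441 CPM in control libraries. The RRM2 groups were tight and did not overlap, yet the log2 fold change of -0.22 ± 0.09 missed the threshold (edgeR adjusted p = 0.126). RRM2 shares 20.2% of its exonic length with another annotated gene on the same strand. RRM2B was at 49.0, 57.1 and 49.1 CPM in knockdown libraries and 55.1, 54.3 and 45.9 CPM in control libraries, which overlapped, with an interval from -0.25 to 0.25. DUT, which hydrolyses dUTP, and SAMHD1, which degrades deoxynucleotide triphosphates, had intervals from -0.37 to 0.23 and from -0.20 to 0.28.

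TK1 (ENSG00000167900.11, chromosome 17, 78174075 to 78187233, minus strand), the cytosolic thymidine kinase that is made in S phase, was at 305, 228 and 288 CPM in knockdown libraries and at 354, 335 and 404 CPM in control libraries. The groups did not overlap, and the mean of knockdown libraries was 0.751 times that of control libraries (log2 fold change -0.41 ± 0.13, SE; edgeR adjusted p = 0.0428). Leaving out knockdown replicate 2 ended the call (edgeR adjusted p = 0.12) and so did leaving out control replicate 1, 2 or 3 (0.102, 0.0521 and 0.16), with the log2 fold change between -0.50 and -0.30 over all fits that left out a library. With trends on GC content and gene length removed it was -0.22 and still passed (edgeR adjusted p = 0.046). Mitochondrial TK2 was at 48.5, 50.6 and 48.8 CPM in knockdown libraries and 47.5, 45.0 and 50.3 CPM in control libraries, which overlapped.

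The other kinases did not pass. DTYMK, which phosphorylates dTMP, was at 140, 97.1 and 147 CPM in knockdown libraries and 157, 146 and 191 CPM in control libraries, which overlapped. NME1, which makes nucleoside triphosphates, had the largest difference of all members, a log2 fold change of -0.62 ± 0.21, and missed the threshold (edgeR adjusted p = 0.0621). NME1 was at 41.7, 27.8 and 55.3 CPM in knockdown libraries and 58.2, 55.1 and 78.9 CPM in control libraries. Its libraries differed widely within each group, and knockdown replicate 3 overlapped the controls. DESeq2 called NME1 (adjusted p = 0.015), and edgeR did so without knockdown replicate 3, at a log2 fold change of -0.89 (adjusted p = 0.0183). The other fits that left out a library did not call NME1, at -0.73 to -0.40, the smallest being that without knockdown replicate 2. When knockdown replicate 2 was the sole knockdown library, NME1 was at -1.21, past 2-fold (edgeR adjusted p = 0.00233). NME1 shares 18.6% of its exonic length with the readthrough gene NME1-NME2, whose row held 0 counts in every library. The NME2 row was low as well, at 47, 29 and 34 counts in knockdown libraries and 48, 38 and 58 in control libraries. How reads shared by these genes were counted is not given, so the NME1 row may hold only a part of the NME1 reads. CMPK1, which phosphorylates CMP and UMP, had an interval from -0.20 to 0.28. Of the uridine-cytidine kinases, UCK1 was at 35.5, 31.9 and 34.1 CPM in knockdown libraries and 37.4, 31.9 and 42.4 CPM in control libraries, with an interval from -0.41 to 0.13. UCK2 was at 128, 117 and 121 CPM in knockdown libraries and 127, 124 and 138 CPM in control libraries, with an interval from -0.30 to 0.12, and both overlapped between the groups.

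**Figure D3:**
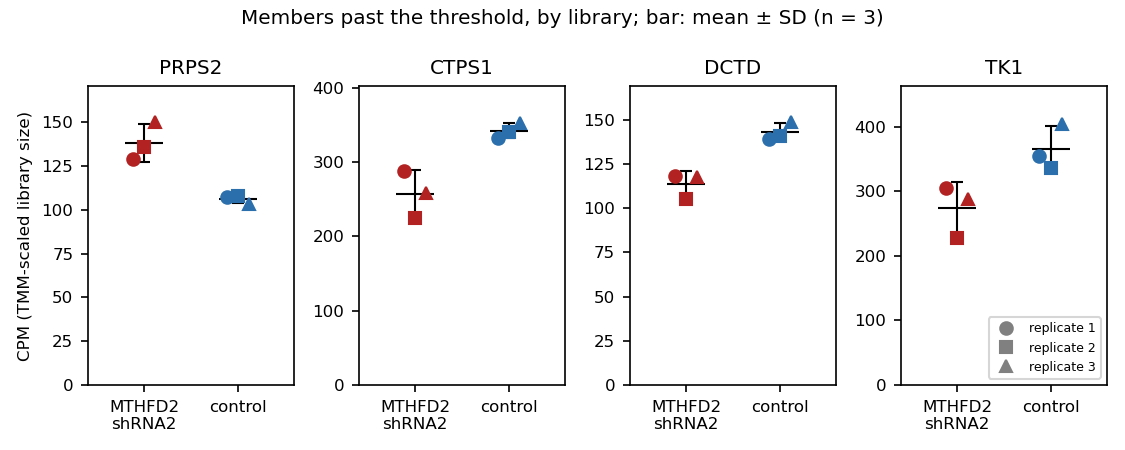
CPM of the 4 members past the threshold in each library, with knockdown on the left and control on the right of each panel, a marker shape per replicate and a bar for the mean ± SD (n = 3). The knockdown libraries lie above the controls for PRPS2, with means of 138 CPM in knockdown and 106 CPM in control libraries, and below them for CTPS1, DCTD and TK1, with knockdown replicate 2 the lowest point of all 3.

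Single libraries carried much of the spread among members. Knockdown replicate 2 was the lowest of the 6 libraries for 18 members (54.5%, against 27.1% of all tested genes), and control replicate 3 was the highest for 14 (42.4%, against 26%). For all 14 of these, knockdown replicate 2 was the lowest. Such genes, lowest in the one and highest in the other, were 18.1% of all tested genes. They included TK1, CTPS1, DCTD, DTYMK, APRT, NME1 and TYMS. PFAS and CAD were instead lowest in knockdown replicate 3. The TMM factor, which multiplies the library size and so lowers CPM as it rises, was highest in knockdown replicate 2, at 1.06. It was lowest in control replicate 3, at 0.943. The part of this scaling in the extremes was not tested. When knockdown replicate 2 was the sole knockdown library set against the controls, its spread being taken to equal theirs, 1 member was higher and 11 were lower among 30% of genes called. In that fit PRPS2 stayed at 0.35, and CTPS1, DCTD and TK1 were at -0.61, -0.45 and -0.68. Without knockdown replicate 2, PRPS2 was called and no member was lower, with 10.4% of all tested genes called. The groups did not overlap for 9 members, 1 above and 8 below, or 27.3%, against 39.1% of all tested genes, 20.1% above and 19.0% below.

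Several steps have a pair of genes, and their ratio within a library does not depend on library scaling. Levels are given per kilobase of exon, with the exons of all annotated transcripts of a gene merged. This length may exceed that of the RNA the cells make. It sets the size of a ratio but is the same in both groups. PRPS2 over PRPS1 was 1.06, 1.16 and 1.16 in knockdown libraries and 0.853, 0.830 and 0.811 in control libraries. PRPS2 was thus the more abundant of the pair in every knockdown library and the less abundant in every control library. CTPS1 over CTPS2 was 3.96, 2.60 and 3.30 in knockdown libraries and 4.97, 4.39 and 5.16 in control libraries. TK1 over TK2 was 24.3, 17.4 and 22.8 in knockdown libraries and 28.7, 28.7 and 31.0 in control libraries. RRM2 over RRM2B was 7.67 ± 0.71 in knockdown libraries and 8.95 ± 0.925 in control libraries (SD, n = 3 each). The RRM2 over RRM2B groups nearly touched, with knockdown replicate 3 at 8.32 and control replicate 1 at 8.34. IMPDH1 over IMPDH2 was 0.133 ± 0.0127 in knockdown libraries and 0.157 ± 0.00608 in control libraries. For these 5 pairs the groups did not overlap, which gave an exact two-sided permutation p = 0.1 each, the smallest that 3 against 3 libraries allow, and 0.12 after adjustment over the 6 pairs. Among single genes, 39.1% of all tested did not overlap, and no such share is given here for ratios of other genes. The groups of PRPS2, CTPS1, TK1 and RRM2 did not overlap as single genes either. Their ratios reuse those values and are not separate evidence. UCK1 over UCK2 was 0.730 ± 0.0121 in knockdown libraries and 0.752 ± 0.0698 in control libraries and overlapped (exact permutation p = 0.7). How reads shared by paralogs were counted is not given in the sources used here.

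**Figure D4:**
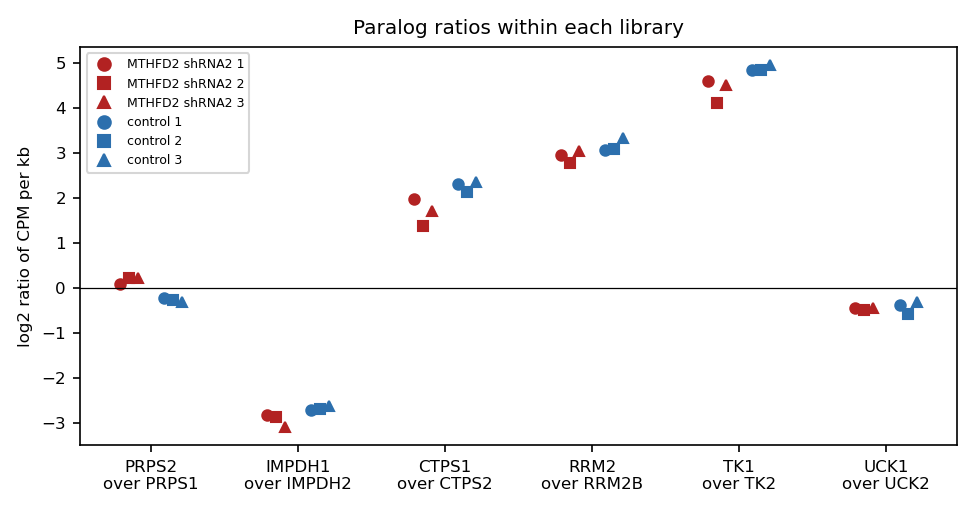
Log2 ratio of CPM per kilobase for 6 paralog pairs, with knockdown libraries in red on the left and control libraries in blue on the right of each pair. PRPS2 over PRPS1 lies above 0 in all knockdown libraries and below 0 in all control libraries, and UCK1 over UCK2 is the pair whose groups overlap.

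By level per kilobase, TK1, TYMS and IMPDH2 stood at the top. TK1 averaged 147 CPM per kilobase in knockdown libraries and 196 in control libraries, TYMS 146 in knockdown libraries and 173 in control libraries, and IMPDH2 124 in knockdown libraries and 115 in control libraries. DHODH was the lowest member, at 3.18 CPM per kilobase in knockdown libraries and 3.96 in control libraries. Next above it were TK2, at 6.88 in knockdown libraries and 6.64 in control libraries, and CTPS2, at 6.89 in knockdown libraries and 6.17 in control libraries. This order depends on the merged exon lengths. By mean CPM alone PAICS was the highest member, at 499 in knockdown libraries and 509 in control libraries, and DHODH was still the lowest. UCK1, at 33.8 CPM in knockdown libraries and 37.2 in control libraries, was then below TK2, at 49.3 in knockdown libraries and 47.6 in control libraries.

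Of 96 tested genes in 8 lists of related metabolism, supply and control, 5 rose and 14 fell by the same edgeR test, or 19.8%, against 17.3% of all tested genes. Of 18 tested genes of purine interconversion and salvage, 2 rose and 1 fell: the mitochondrial adenylate kinases AK3 (0.56 ± 0.13 on the log2 scale, SE) and AK4 (0.45 ± 0.10) rose, and PNP, which cleaves purine nucleosides, fell by 0.40 ± 0.11. Of 9 tested genes of pyrimidine interconversion and salvage, UPP1, the uridine phosphorylase, alone fell. UPP1 was at 54.8, 48.8 and 51.9 CPM in knockdown libraries and 78.6, 80.8 and 92.7 CPM in control libraries (log2 fold change -0.70 ± 0.11; edgeR adjusted p = 0.00214), and its call held in every fit that left out a library. Of 11 tested genes of nucleotide breakdown and pool cleaning, the nucleotidases NT5E (-0.34 ± 0.10) and NT5C2 (-0.36 ± 0.11) fell and none rose.

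Of 6 tested transporters 2 rose and 1 fell. SLC29A4, which carries adenosine and organic cations, was at 6.12, 8.12 and 7.93 CPM in knockdown libraries and 2.11, 3.59 and 4.09 CPM in control libraries (log2 fold change 1.17 ± 0.24; edgeR adjusted p = 0.0077). Its groups did not overlap, and the call held in every fit that left out a library. The mitochondrial pyrimidine nucleotide carriers went opposite ways, SLC25A33 at -0.62 ± 0.16 and SLC25A36 at 0.38 ± 0.12, both past the edgeR threshold. Of 8 genes that supply ribose phosphate, PGD, which makes ribulose phosphate, fell by 0.44 ± 0.11 and none rose. Of 12 genes that supply folate-borne carbon and amino acids, 1 rose and 2 fell: MTHFD1L, the mitochondrial enzyme that releases formate, fell by 0.33 ± 0.10, and SHMT2, the mitochondrial enzyme that takes a carbon from serine, fell by 0.42 ± 0.11.

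TK1, RRM2 and TYMS are made mainly in S phase, so genes of S phase and DNA replication are set beside them. Of 23 tested, 4 fell (CDT1, MCM7, MCM5 and CDC6, between -0.52 and -0.36) and none rose. That is 17.4%, against 7.58% of all tested genes called lower and 17.3% called in either direction. Of the 23, 21 lay below 0, with a median of -0.22, against 49.2% of all tested genes and a median of 0.01. These differences were not tested. Of 9 tested regulators, MYC, a transcription factor that drives nucleotide synthesis genes, fell by 0.38 ± 0.10, and CDKN1A, the cell cycle inhibitor p21, by 0.40 ± 0.11. MYC was at 115, 105 and 105 CPM in knockdown libraries and 143, 131 and 148 CPM in control libraries, with no overlap (edgeR adjusted p = 0.0245). The calls of UPP1 and SLC29A4 were among those that held whichever library was left out. Without control replicate 1 the calls of AK3, SLC25A33, PGD, SHMT2, CDT1, MYC and CDKN1A were lost, and without control replicate 3 those of all of these but AK3, and of AK4. AK4 was lost without control replicate 2 as well. PNP, NT5E, NT5C2, SLC25A36, MTHFD1L, CDC6, MCM5 and MCM7 lost their calls without control replicate 1, 2 or 3. Without knockdown replicate 2 the calls of PNP, SLC25A36, MTHFD1L, CDC6, MCM7, MYC and CDKN1A were lost, and without knockdown replicate 3 those of NT5C2 and MCM5. The edgeR adjusted p of the lost calls lay between 0.0505 and 0.162. The part of S phase genes and of MYC in the members' values was not tested.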

How the data were processed

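RNA sequencing of T24 cells gave 6 libraries, 3 per group, grouped by their titles. HISAT2 2.0.4 and the GRCh38 build are named in the submitters' processing notes. How reads were filtered and counted, on which annotation and with what strand setting, is not given in the sources used here. Each deposited value is a raw count of reads for a gene symbol, not normalized, and all columns were used. No row lacked a gene name.

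Genes were kept by filterByExpr, scaled by TMM and tested, knockdown against control, with edgeR's quasi-likelihood F test (robust; edgeR 4.0.16, limma 3.58.1, R 4.3.3), and p-values were adjusted by the Benjamini-Hochberg method over 13896 genes (called under 0.05). Each standard error is the log2 fold change divided by the square root of F. Paralog ratios were compared by exact permutation. Lengths, GC content, coordinates and exon overlaps came from GENCODE 29 (GRCh38), matched by symbol for 34629 of 54261 rows, and promoter sequences from RefSeq (GRCh38.p14). A count of 3, which a count of 0 allows, equals 0.15 to 0.169 CPM, and such floors cover counting error only.

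Members and lists were chosen with earlier results of these data known. All members are named. From the 8 other lists, genes past the threshold are named, up to 4 per direction, except for a result that is not reported here. Other settings tried were DESeq2 1.42.0, RLE scaling, no filter or 1 CPM in 3 libraries, GC content and length trends removed by splines (90.1% of tested genes had values; the trends were centred within each library after a trial without centring had been seen), a replicate block, each library left out, knockdown replicate 2 alone and a threshold of 0.01. On simulated data for this comparison, with 200 of 13896 genes changed, edgeR recovered 54% of genes changed 1.5-fold and 80% at 2-fold, with 2.4% false calls, and DESeq2 56% and 80%, with 5.3%. Counts of replicates differed by more than sampling noise in every pair (chi-square over degrees of freedom from 2.56 to 31.6).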

Additional observations from a re-analysis of the deposited data

How the results depend on the processing

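PRPS2, CTPS1, DCTD and TK1 kept their direction in all alternatives, and their calls under RLE scaling, DESeq2, other low-count filters, the replicate block, removed GC content and length trends, and knockdown replicate 2 alone. Members called changed from 1 higher and 3 lower in other settings. With no low-count filter 7 were lower, which added PFAS, APRT, DTYMK and NME1, and 12% of all tested genes were called. With GC content and length trends removed 2 were higher and 8 lower, and 24.6% of all tested genes were called. That setting added HPRT1, higher, and ADSL, ATIC, ADK, RRM2 and NME1, lower. In it the log2 fold change was 0.37 for PRPS2, -0.57 for CTPS1 and -0.25 for DCTD. APRT and DTYMK, at -0.43 and -0.37 in the main fit, were at -0.23 and -0.20 there and were not called. At a threshold of 0.01, 0 members were called in either direction, against 5.39% of all tested genes. Leaving out 1 library gave 0 to 1 higher and 0 to 7 lower. Leaving out control replicate 1, 2 or 3 left 0 members called, and leaving out knockdown replicate 2 left 0 lower. The share of all tested genes called also fell, from 17.3% to 7.03%, 11.8% and 6.92% without control replicate 1, 2 or 3. Without knockdown replicate 2 this share was 10.4%. The causes were not tested.

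Over all genes, 1349 were higher and 1053 lower. The counts were 1744 lower with GC content and length trends removed, 2212 and 2220 with knockdown replicate 2 alone, 472 and 277 at 0.01, and 600 to 1468 higher and 368 to 1213 lower without 1 library. The related lists, with 5 higher and 14 lower, gave 9 and 24 with GC content and length trends removed, 25 lower with knockdown replicate 2 alone, 2 and 1 at 0.01, and 3 to 7 higher and 1 to 17 lower without 1 library.

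With the replicate block, 1 member was higher and 13 were lower, 11 related genes were higher and 33 lower, and 2566 and 2496 of all genes were. Deviations from the group mean correlated between same-numbered libraries at r = -0.02, 0.30 and 0.35 for replicates 1, 2 and 3. Between libraries of unlike number r ran from -0.40 to 0.16. The values for replicates 2 and 3 were thus the highest of any pair, but not every library correlated best with its own number. The labels do not say that the numbers pair the samples, so the main fit used no block.

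Signs turned only for members that passed no test in either setting. With GC content and length trends removed the log2 fold change was -0.068 for PPAT, -0.078 for GMPS, -0.054 for CMPK1, 0.018 for UCK1 and -0.11 for SAMHD1. With knockdown replicate 2 alone it was 0.086 for GART, -0.027 for IMPDH2, 0.13 for RRM2B and -0.029 for CMPK1. With a filter of 1 CPM in 3 libraries it was 5e-04 for RRM1 and 0.0033 for RRM2B. Without 1 library it ran from -0.15 to 0.016 for GART, -0.084 to 0.038 for RRM2B, -0.24 to 0.038 for DUT, -0.078 to 0.12 for CMPK1 and -0.041 to 0.12 for SAMHD1, and the UCK1 over UCK2 difference from -0.12 to 0.015. On simulated data with 3 libraries a group and 200 of 13896 genes changed, edgeR recovered 54% of genes changed 1.5-fold. That share is over all tested genes. Recovery at the members' own counts was not tested, and smaller differences among them may have been missed.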
